A study of Mus musculus with 12 samples.

Results

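The 77 genes whose symbols begin with Mrpl or Mrps followed by a digit, which encode proteins of the mitochondrial ribosome, were followed through RNA-seq of BV2 cells, an immortalised mouse microglial line. They were taken from the 22935 genes listed, and 4 rows with pseudogene names were left out. By symbol, 48 are Mrpl (large subunit) and 29 are Mrps (small subunit) genes. Cells had received oxy-Hb (10 uM) with C3a (20 ug/ul as the labels write it), oxy-Hb (10 uM) with C3aRA (50 uM) or oxy-Hb (10 uM) alone, with 3 libraries in each group. All 9 libraries therefore come from cells given oxygenated haemoglobin, and cells given PBS were not analysed here. C3a is the small activation peptide of complement protein C3, whereas C3aRA is given in the labels by this abbreviation only, and neither the time of exposure nor whether replicates were separate cultures is stated. The p-values below measure the spread between these libraries, which may be technical.

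Mitochondrial ribosomes translate the few messenger RNAs encoded by mitochondrial DNA, all of which specify membrane subunits of the respiratory chain and ATP synthase. Their ribosomal RNAs come from the mitochondrial genome, but their proteins are encoded in the nucleus, made in the cytosol and imported. Part of these proteins descend from bacterial ribosomal proteins and part were added in the mitochondrial lineage. In microglia, as in other macrophages, mitochondrial activity is known to shift with activation.

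Some symbols do not match their place in the structure. Mrps30 and Mrps18a encode proteins of the large subunit, and the product of Mrps36 is now assigned to the 2-oxoglutarate dehydrogenase complex. By structure, 50 genes belonged to the large subunit and 26 to the small one, and 46 of these 76 proteins have bacterial counterparts while 30 are specific to mitochondria. The genes lie on 17 chromosomes, with 11 on chromosome 11 and 8 on chromosome 17. Their annotated transcripts are short, with a median of 1316 bases (418 to 7300), against 2633 bases over the 14146 genes tested, while the median GC content was 50.1% against 49.6%. All 77 passed the filter on low counts, and their median level was 52.9 CPM (counts scaled to library size), against 22.6 CPM over all tested genes.

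RefSeq start sites of build GRCm38.p6 gave promoter windows, 250 bases before to 50 after the start, for 68 of the 77 genes. Windows of 4 genes are shown because these genes had the largest differences between C3a and C3aRA described further on. Capitals mark the motif matches, on either strand, and positions give the first base of the match as printed, with the base before the start site as -1. Mrpl18 is read from chr17:12916042-12916341 (minus strand), with an ETS motif (CCGGAAGT) at -240. Mrps21 is read from chr3:95871465-95871764 (minus strand), with an NRF1 motif (GCGC, any base, then TGCGC) at -91. Mrpl36 is read from chr13:73330759-73331058 (plus strand), with an E-box (CACGTG) at -43 and a YY1 motif (AAGATGGCG, here on the opposite strand) at -31. Mrpl20 is read from chr4:155802628-155802927 (plus strand), with an E-box at -33.
Mrpl18 promoter: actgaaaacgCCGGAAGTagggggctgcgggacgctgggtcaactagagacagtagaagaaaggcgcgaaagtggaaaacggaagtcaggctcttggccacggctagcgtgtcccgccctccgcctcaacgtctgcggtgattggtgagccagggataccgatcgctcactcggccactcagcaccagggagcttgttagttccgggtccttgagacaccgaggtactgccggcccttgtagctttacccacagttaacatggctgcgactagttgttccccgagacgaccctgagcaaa
Mrps21 promoter: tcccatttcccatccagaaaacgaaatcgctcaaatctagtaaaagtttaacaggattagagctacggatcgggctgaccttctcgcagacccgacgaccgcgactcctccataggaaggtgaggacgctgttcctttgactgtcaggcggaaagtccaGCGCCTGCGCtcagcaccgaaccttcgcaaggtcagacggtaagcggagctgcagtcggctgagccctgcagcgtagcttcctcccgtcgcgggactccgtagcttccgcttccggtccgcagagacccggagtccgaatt
Mrpl36 promoter: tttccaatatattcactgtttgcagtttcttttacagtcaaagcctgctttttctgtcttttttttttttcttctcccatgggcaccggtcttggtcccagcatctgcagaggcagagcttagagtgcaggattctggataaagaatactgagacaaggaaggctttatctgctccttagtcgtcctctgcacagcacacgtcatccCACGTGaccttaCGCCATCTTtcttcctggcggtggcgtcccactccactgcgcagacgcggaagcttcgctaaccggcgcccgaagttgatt
Mrpl20 promoter: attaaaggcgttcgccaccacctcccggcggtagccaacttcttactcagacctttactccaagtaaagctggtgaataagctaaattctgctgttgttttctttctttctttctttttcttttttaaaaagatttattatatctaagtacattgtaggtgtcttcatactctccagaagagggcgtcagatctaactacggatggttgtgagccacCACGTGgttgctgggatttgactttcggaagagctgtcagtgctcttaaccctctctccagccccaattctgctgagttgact

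No single motif searched was shared by all 4 windows. The windows of Mrpl18 and Mrpl36 lie wholly inside the genes as the deposited coordinates give them. Each is therefore that of 1 of the gene's possible starts, and the ETS match of Mrpl18 lies within the annotated gene. The NRF1 motif, which is bound by a factor known to drive nuclear genes for mitochondria, was found in 13 of the 68 windows (19.1%), against 10.2% of the 12270 windows of tested genes and 4.60% of all 32851 windows. ETS motifs were found in 11 windows (16.2%, against 8.47% of tested genes' windows) and YY1 motifs in 8 (11.8%, against 3.06%). E-boxes were found in 5 windows (7.35%, against 9.95%). A heat shock element (TTCNNGAA) was found in the Mrpl39 window only (1.47%, against 7.07%), and not in that of Mrpl18, for which human cells are known to make a shorter cytosolic protein after heat shock. These matches describe letters in a window and not binding. Windows without a match include those of Mrpl11 and Mrps30.

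The libraries held 12934794 to 20479002 counts, and the 77 genes took 0.425% to 0.582% of them. The largest share was that of C3a replicate 2, a library that stood apart from the other 8 on the first principal component of all tested genes (-76.3, against -10.8 to 23.8). In that library 75 of the 77 genes had their highest level of all 9 (97.4%), the exceptions being Mrps34 and Mrpl23, whereas 26.7% of all tested genes did. It was also the highest library for 78 of 82 genes taken as cytosolic ribosomal proteins and 9 of 12 mitochondrially encoded mRNAs, but for 4 of 20 mitochondrial tRNA synthetase genes. Its level over the mean of C3a replicates 1 and 3 had a median log2 ratio of 0.41 for the mitoribosomal genes, 0.72 for cytosolic ribosomal proteins and -0.03 over all tested genes. Values from fits without this library stand beside those of all 9 where both are given. All 12 microglia and macrophage markers passed the filter, and their summed level was 2035 to 2406 CPM with C3a, 1915 to 2059 CPM with C3aRA and 1795 to 1937 CPM with oxy-Hb alone. Cd68 (780 to 1070 CPM) and Ptprc (404 to 504 CPM) were highest, while Aif1, P2ry12 and Tmem119 stayed at or below 3.76 CPM. Summed oligodendrocyte, neuron, astrocyte, endothelial and red cell markers stayed at or below 11.6 CPM in every library. Few of those markers were among the genes listed: 2 of 5 oligodendrocyte, 1 of 5 neuron, 1 of 5 astrocyte, 1 of 6 endothelial or fibroblast and 2 of 5 red cell markers.

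The most abundant transcripts per length, averaged over the 9 libraries, were Mrpl42 at 171 CPM per kb of transcript, Mrpl52 at 152, Mrpl13 at 134, Mrps10 at 127 and Mrpl30 at 125. All but Mrps10 encode large-subunit proteins. Mrpl42 had 193 ± 29 CPM per kb with C3a, 148 ± 5.1 with C3aRA and 171 ± 15 with oxy-Hb alone (SD, n = 3 each), and the ranges of Mrpl42 and Mrpl52 (188 ± 84, 125 ± 5.6 and 145 ± 15 CPM per kb in the same groups) overlapped. Mrps26 was lowest at 6.52 CPM per kb, followed by Mrps18c at 7.77, Mrps16 at 7.79, Mrps25 at 7.82 and Mrpl47 at 8.25. This order depends on the annotated transcript: per kb of coding sequence Mrpl13 stood first at 306.5 CPM and Mrps18c last at 11.6 CPM, and Mrps26 moved from place 77 to place 58.

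**Figure D1:**
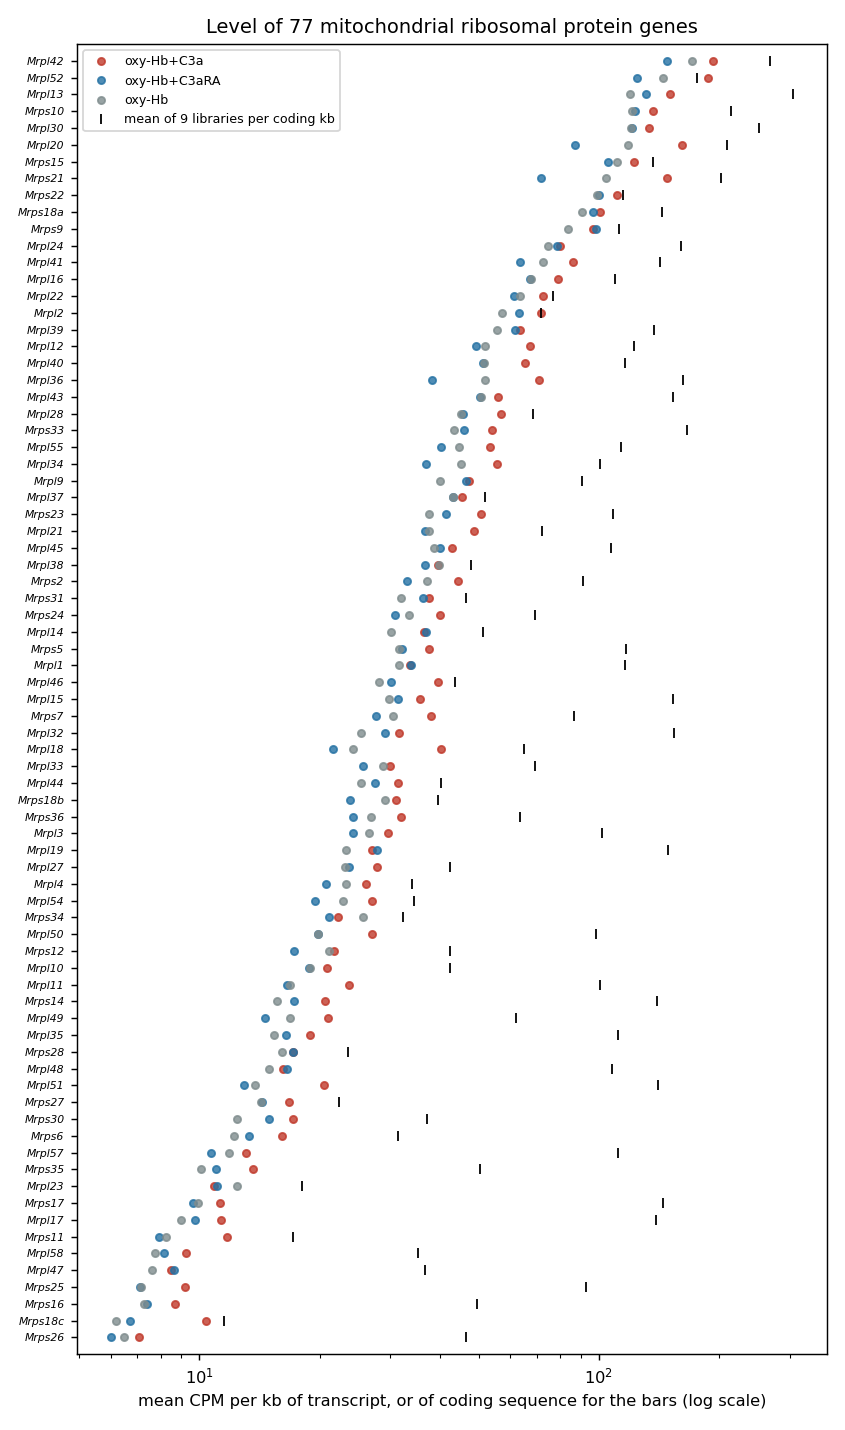
Level of each of the 77 genes, as mean CPM per kb of annotated transcript on a log axis, for oxy-Hb+C3a (red), oxy-Hb+C3aRA (blue) and oxy-Hb (grey), with black bars for the mean of all 9 libraries per kb of coding sequence. Levels run from 6.52 CPM per kb for Mrps26 to 171 CPM per kb for Mrpl42, and the 3 groups lie close together for nearly every gene compared with this span.

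With C3a, transcripts of the mitochondrial ribosome were slightly more abundant than with oxy-Hb alone, and much of this lay in 1 library. The summed level of the 77 genes was 4532, 6208 and 4914 CPM in C3a replicates 1 to 3, 4322, 4496 and 4368 CPM with C3aRA, and 4203, 4552 and 4363 CPM with oxy-Hb alone. C3a replicate 1 lay inside the oxy-Hb range, and C3a replicates 2 and 3 lay above it. In bulk RNA, CPM are shares of a library's counts and show neither the number of cells nor the amount of these transcripts per cell. The median log2 ratio to the oxy-Hb mean was 0.04, 0.52 and 0.16 in the C3a libraries, and -0.04, 0.04 and -0.01 in the C3aRA libraries. The balance of the subunits did not follow these shifts, since small-subunit genes made up 29.6% to 31.2% of the summed level in every library.

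**Figure D2:**
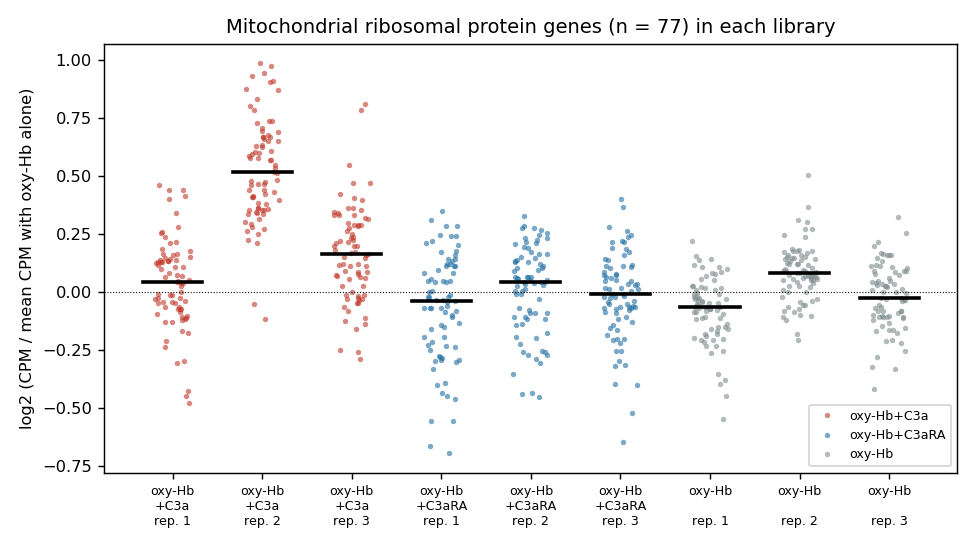
Log2 ratio of the CPM of each of the 77 genes in each library to its mean CPM in the 3 oxy-Hb libraries, with points for genes and black bars for medians, for oxy-Hb+C3a (red), oxy-Hb+C3aRA (blue) and oxy-Hb (grey). The median of C3a replicate 2 is 0.52, those of the other C3a libraries are 0.04 and 0.16, and the C3aRA medians lie between -0.04 and 0.04.

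Between C3a and oxy-Hb alone, 3 of the 77 genes rose and none fell by edgeR's quasi-likelihood test at an adjusted p below 0.05. Over all tested genes 0.905% were called higher and 3.04% lower. The fitted log2 fold change was above 0 for 74 of the 77 genes, with a median of 0.26 and a range of -0.21 to 0.74, whereas 50.2% of all tested genes lay above 0. That background is not matched for level or length. Over all tested genes, Spearman's rho of this fold change was 0.25 with mean CPM and -0.25 with transcript length. Also above 0 were 79 of 82 genes taken as cytosolic ribosomal proteins and 25 of 26 genes of mitochondrial protein import. At an unadjusted p below 0.05 there were 28 higher (11.5% of all tested genes) and 0 lower (12.6%). DESeq2 called 5 higher (3.68% of the genes it adjusted) and 0 lower (6.42%), and limma-voom called 2 higher (0.933%) and 0 lower (3.49%). The C3a libraries lay wholly above the oxy-Hb libraries for 18 genes (13.2% of all tested genes did so) and wholly below for 0 (14.6%). Without C3a replicate 2 the median was 0.10, 56 genes lay above 0, and 4 genes were called higher, against 4% of all genes called higher and 5.55% lower in that fit. The fit of these 2 groups alone called 0 of the 77 in either direction, against 0.0218% of all genes higher and 0.698% lower.

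Mrpl18, a bacterial-type protein of the central protuberance of the large subunit, had the lowest p. It had 40.5, 56.1 and 50.7 CPM with C3a, 25.01, 24.4 and 29.8 CPM with C3aRA, and 28.1, 29.0 and 31.3 CPM with oxy-Hb alone. Every C3a library was above every library of the other groups, and the C3aRA and oxy-Hb libraries overlapped. The log2 fold change of Mrpl18 with C3a over oxy-Hb was 0.74 ± 0.14 (SE; edgeR adjusted p = 0.0122), and without C3a replicate 2 it was 0.62 (edgeR adjusted p = 0.00171). The call was lost when oxy-Hb replicate 1 or oxy-Hb replicate 2 was left out. The authors' deposited table gives 0.75 with an adjusted p of 0.00263.

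Mrpl11, which forms the base of the stalk where translation factors bind, had 69.7, 75.1 and 71.2 CPM with C3a, 50.2, 52.7 and 49.0 CPM with C3aRA, and 48.9, 48.0 and 57.5 CPM with oxy-Hb alone. The C3a libraries were closely grouped and all higher than the other 6, and C3a replicate 2 did not stand out. The log2 fold change of Mrpl11 was 0.48 ± 0.11 (SE; edgeR adjusted p = 0.026), and without C3a replicate 2 it was 0.45 (edgeR adjusted p = 0.00509). The call held in 5 of the 9 fits that leave out 1 library, and was lost without C3aRA replicate 1 or 2 or oxy-Hb replicate 1 or 2.

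Mrps30, a mitochondria-specific protein of the large subunit, had 49.2, 66.6 and 55.2 CPM with C3a, 50.3, 48.9 and 49.5 CPM with C3aRA, and 43.5, 40.2 and 40.1 CPM with oxy-Hb alone. The C3a and C3aRA libraries overlapped, and all 6 were above those with oxy-Hb alone. The log2 fold change of Mrps30 with C3a over oxy-Hb was 0.47 ± 0.12 (SE; edgeR adjusted p = 0.0487), which held in 2 of 9 fits that leave out 1 library, those without C3a replicate 1 or C3a replicate 2. The authors' deposited table gives Mrps30 an adjusted p of 0.0804.

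**Figure D3:**
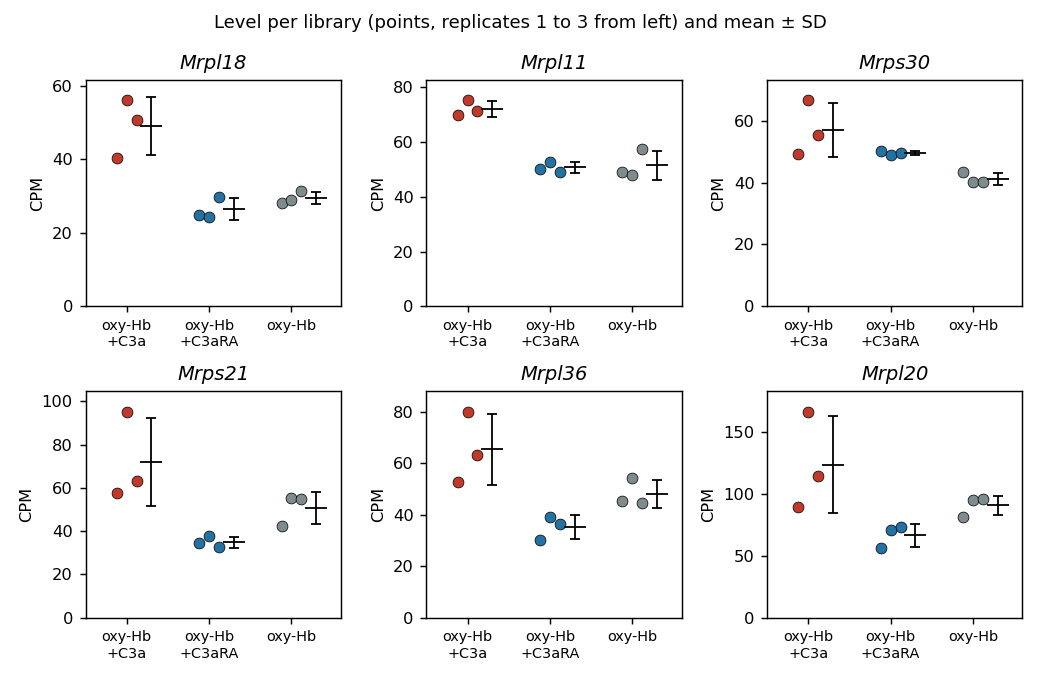
CPM per library of 6 genes in oxy-Hb+C3a (red), oxy-Hb+C3aRA (blue) and oxy-Hb (grey), with points for replicates 1 to 3 from left and black bars for the mean ± SD of 3 libraries, on axes that start at 0. All C3a libraries of Mrpl18 (40.5 to 56.1 CPM) lie above the other 6, and the C3aRA libraries of Mrps21, Mrpl36 and Mrpl20 lie below the oxy-Hb libraries.

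The genes next in order of p did not pass. Mrpl50, a mitochondria-specific protein of the large subunit, had 55.7, 58.4 and 58.0 CPM with C3a, 45.8, 43.1 and 36.8 CPM with C3aRA, and 35.6, 45.4 and 44.6 CPM with oxy-Hb alone. Its C3a libraries were nearly equal to one another and above all others, the log2 fold change was 0.45 ± 0.13 (SE; edgeR adjusted p = 0.0589), and it was the additional gene called without C3a replicate 2 (0.43, edgeR adjusted p = 0.0172). Mrpl51, with 57.4, 90.8 and 62.6 CPM with C3a and 41.5, 51.5 and 48.8 CPM with oxy-Hb alone, had a log2 fold change of 0.57 ± 0.17 (SE; edgeR adjusted p = 0.0691) that came to 0.34 without C3a replicate 2. Mrpl46 of the central protuberance (0.49), Mrps35 (0.43) and Mrps21 (0.50) of the small subunit had edgeR adjusted p-values of 0.0903 to 0.102. The largest fitted difference, 0.74 for Mrps18c, was that of a gene near the bottom of the order, with 5.21, 7.81 and 6.91 CPM with C3a and 2.70, 5.61 and 3.54 CPM with oxy-Hb alone, groups that overlapped (edgeR adjusted p = 0.154).

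Only Mrps34, Mrpl23 and Mrpl38 had a fitted value below 0 in the fit of 9 libraries. All 77 genes lay above 0 after a correction of each library for length and GC content, but that correction also raised the share of all tested genes above 0 from 50.2% to 62.9%. With total count scaling 68 of the 77 lay above 0 (40.0% of all tested genes), and without C3a replicate 2, 56 did (49.1%). Mrps34, a mitochondria-specific protein of the small subunit, had 19.1, 22.8 and 19.3 CPM with C3a, and 21.1, 26.1 and 23.5 CPM with oxy-Hb alone, with a log2 fold change of -0.21 ± 0.15 (SE; edgeR adjusted p = 0.406). Mrpl23, at the exit of the peptide tunnel, had -0.19, and Mrpl38 of the central protuberance had -0.0033.

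**Figure D4:**
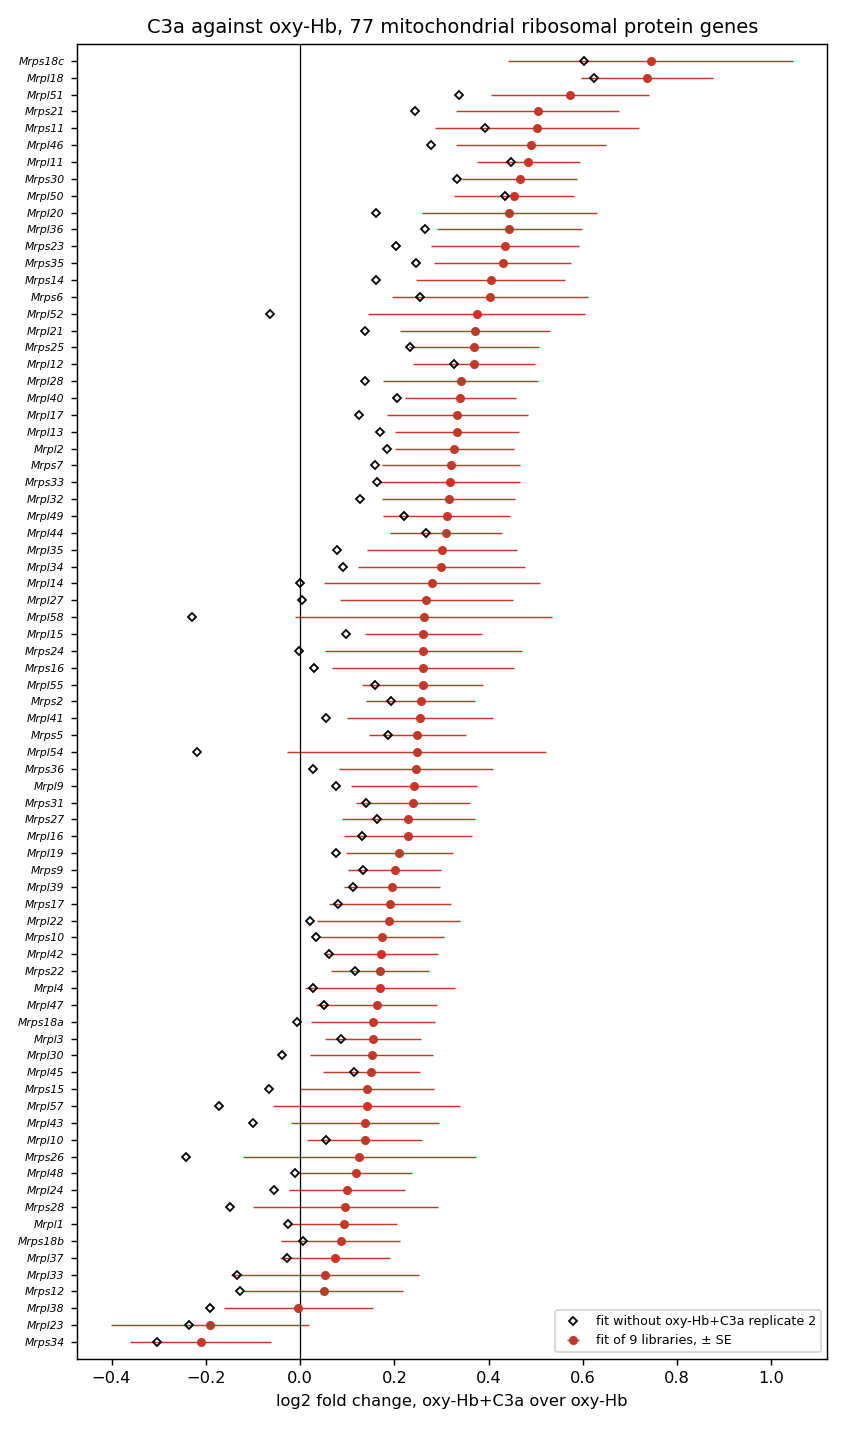
Log2 fold change of the 77 genes for oxy-Hb+C3a over oxy-Hb, sorted, with red points and bars for the fit of 9 libraries ± SE and open diamonds for the fit without C3a replicate 2. The median is 0.26 with all libraries and 0.10 without that one, and the diamonds of Mrpl18, Mrpl11 and Mrpl50 stay close to their red points.

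The classes of the ribosome's proteins were set side by side. Over all tested genes, 0.905% were called higher with C3a over oxy-Hb, and 11.5% were higher at an unadjusted p below 0.05 in edgeR. The median log2 fold change with C3a over oxy-Hb was 0.26 over the 50 large-subunit genes, of which 3 were called, and 0.25 over the 26 small-subunit genes, of which 0 were called (11 at an unadjusted p below 0.05). Genes with bacterial counterparts had a median of 0.26 (2 of 46 called) and mitochondria-specific ones 0.24 (1 of 30). Among the regions of the ribosome, 1 of 7 genes of the central protuberance was called (Mrpl18), 1 of 4 of the stalks (Mrpl11), and 0 of 8 at the exit tunnel, 0 of 5 at the peptidyl transferase centre and 0 of 3 at the decoding site and mRNA channel, where 2, 1 and 1 genes were higher at an unadjusted p below 0.05 in edgeR. The 5 genes called by DESeq2 (Mrpl18, Mrpl11, Mrps30, Mrpl50 and Mrpl51) and the 2 called by limma-voom (Mrpl18 and Mrpl11) all belong to the large subunit, and besides Mrpl18 and Mrpl11 none lies in these regions. Without C3a replicate 2 the medians were 0.08 over the large-subunit genes (4 called higher) and 0.15 over the small-subunit genes (0 called), against 4% of all genes called higher. In that fit the stalks had a median of 0.19, the central protuberance 0.16, the peptidyl transferase centre 0.09, the exit tunnel 0.08, and the decoding site and mRNA channel -0.0024. No difference between these classes was tested, and regions of 3 to 8 genes are too small to set 1 or 2 genes against the share of all genes.

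Between C3aRA and oxy-Hb alone, no shift of the mitoribosomal transcripts as a group was seen. None of the 77 genes was called by edgeR, which called 0% of all tested genes in either direction, and DESeq2 and limma-voom called none of the 77 either. DESeq2 called 0.0276% of the genes it adjusted higher and 0.147% lower, and limma-voom 0% in either direction. At an unadjusted p below 0.05 there were 3 of the 77 higher (3.37% of all tested genes) and 4 lower (4.78%). The median log2 fold change was -0.00044, with 38 genes above 0 and a range of -0.54 to 0.29. The groups did not overlap for 7 genes higher with C3aRA (11.9% of all tested genes) and 8 lower (11%).

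The 3 lowest p-values belonged to small bacterial-type proteins. Mrps21 of the small subunit had 34.6, 37.5 and 32.5 CPM with C3aRA and 42.3, 55.2 and 54.9 CPM with oxy-Hb alone, a log2 fold change of -0.54 ± 0.17 (SE; edgeR adjusted p = 0.479). Mrpl36, a protein that human large subunits take up late in their assembly, had 30.3, 39.2 and 36.4 CPM with C3aRA and 45.4, 54.3 and 44.4 CPM with oxy-Hb alone, a log2 fold change of -0.44 ± 0.16 (SE; edgeR adjusted p = 0.504). Mrpl20 of the large subunit had 55.9, 70.8 and 72.8 CPM with C3aRA and 81.5, 94.8 and 95.3 CPM with oxy-Hb alone, a log2 fold change of -0.44 ± 0.19 (SE; edgeR adjusted p = 0.583). For all 3 genes every C3aRA library was below every oxy-Hb library.

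These calls changed with a library outside the comparison. Without C3a replicate 2, edgeR called Mrps21 (adjusted p = 0.00481), Mrpl20 (0.0148) and Mrpl36 (0.0265) lower with C3aRA, and 0 genes of the 77 higher, against 1.38% of all genes lower and 1.88% higher. The fit of these 2 groups alone called the same 3 lower and Mrpl19 higher (log2 fold change 0.25, edgeR adjusted p = 0.047), against 1.94% of all genes lower and 2.48% higher. The authors' deposited table gives adjusted p-values of 0.00154, 0.00306 and 0.0145 for Mrps21, Mrpl20 and Mrpl36, all lower with C3aRA. It lists 2 of the 77 as higher, Mrpl19 (0.0215) and Mrps9 (0.0354), both of bacterial type. Mrps9 had 138, 138 and 141 CPM with C3aRA and 117, 114 and 127 CPM with oxy-Hb alone.

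The difference between C3aRA and oxy-Hb alone moved with transcript length, and also with GC content and level. The 26 shortest transcripts (418 to 1031 bases) had a median log2 fold change of -0.15, the 26 of middle length -0.0032, and the 25 longest (2080 to 7300 bases) 0.07. Over the 77 genes, Spearman's rho between length and this fold change was 0.42, and it was 0.21 after a correction of each library for length and GC content. Before the correction rho was -0.36 with GC content and 0.26 with mean CPM. Over all tested genes it was 0.03 with length, -0.16 with GC content and 0.28 with mean CPM. Genes in general showed little of the relation with length, and the 1612 tested genes as short as the shortest 26 had a median of -0.04. Mrps21 (488 bases), Mrpl20 (764) and Mrpl36 (923) all belong to the shortest 26. With C3a over oxy-Hb the medians of the 3 length classes were 0.25, 0.28 and 0.26, from shortest to longest, against 0.16, 0.12 and -0.03 over all tested genes of those lengths. The part of length or library preparation in these values was not tested beyond that correction, after which 11 of the 77 were called higher with C3a over oxy-Hb and 0 lower, against 5.46% and 2.23% of all genes, and the median was 0.30, against 0.11 over all genes.

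**Figure D5:**
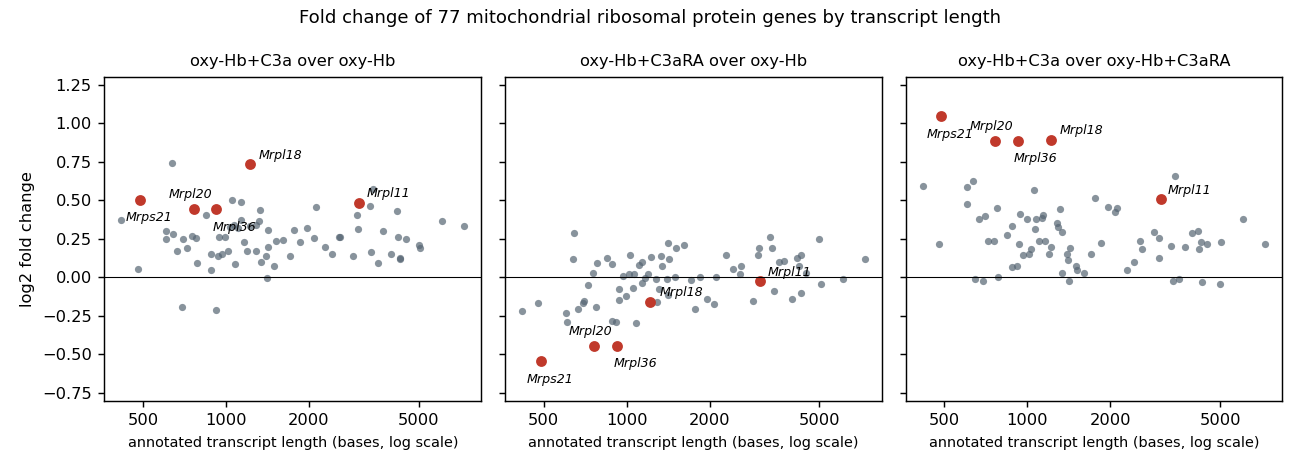
Log2 fold change of each of the 77 genes against annotated transcript length in bases on a log axis, for C3a over oxy-Hb, C3aRA over oxy-Hb and C3a over C3aRA from left to right, with 5 named genes in red. In the middle panel the shortest transcripts lie lowest, with Mrps21 at -0.54, and in the right panel Mrps21 lies highest at 1.05.

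Between C3a and C3aRA, 9 of the 77 genes were called higher by edgeR with C3a and 0 lower, against 2.87% of all tested genes higher and 3.32% lower. At an unadjusted p below 0.05, 24 were higher (12% of all tested genes) and 0 lower (12.3%). DESeq2 called 15 higher (6.27% of the genes it adjusted) and 0 lower (6.78%), and limma-voom called 9 higher (2.36%) and 0 lower (3.23%). The median log2 fold change was 0.24, and 70 of the 77 lay above 0, against 50.7% of all tested genes. Of the cytosolic ribosomal proteins 75 of 82 lay above 0, and of the genes of mitochondrial protein import 26 of 26. C3a libraries lay wholly above C3aRA libraries for 26 genes (14.1% of all tested genes) and wholly below for 0 (14.7%). Without C3a replicate 2 the median was 0.07, and 10 genes were called higher, against 5.97% of all genes higher and 6.54% lower. The fit of these 2 groups alone called 3 higher and 0 lower, against 0.415% of all genes higher and 0.46% lower. Without C3aRA replicate 1, none of the 77 was called, and 53 genes were called in all.

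The largest differences were those of Mrps21, Mrpl18, Mrpl20 and Mrpl36, whose promoter windows are printed above. Mrps21 had 57.7, 95.2 and 63.2 CPM with C3a, against the C3aRA values of 32.5 to 37.5 CPM, a log2 fold change of 1.05 ± 0.17 (SE; edgeR adjusted p = 0.00796). Mrpl18 differed by 0.89 ± 0.14 (SE; edgeR adjusted p = 0.00633). For Mrps21, oxy-Hb alone lay between the additions in every library, whereas for Mrpl18 the C3aRA and oxy-Hb libraries overlapped.

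Mrpl36 had 52.8, 80.0 and 63.2 CPM with C3a, against 30.3 to 39.2 CPM with C3aRA, a log2 fold change of 0.89 ± 0.16 (SE; edgeR adjusted p = 0.0091). Mrpl20 had 89.6, 166 and 114 CPM with C3a, against 55.9 to 72.8 CPM with C3aRA, a log2 fold change of 0.89 ± 0.19 (SE; edgeR adjusted p = 0.0201). Both genes were highest in C3a replicate 2. Without that library the differences came to 0.79 for Mrps21, 0.78 for Mrpl18, 0.71 for Mrpl36 and 0.60 for Mrpl20, and all 4 stayed called.

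The other 5 called genes differed less. They were Mrpl11 of the stalk base (0.51, edgeR adjusted p = 0.0191), the mitochondria-specific large-subunit proteins Mrpl51 (0.66, 0.0355), Mrpl49 (0.52, 0.0396) and Mrpl50 (0.45, 0.0492), and the bacterial-type small-subunit protein Mrps2 (0.43, 0.045). Mrps2 had 81.3, 99.4 and 96.5 CPM with C3a, against 63.5, 66.3 and 76.5 CPM with C3aRA. Mrpl49 had 33.3, 41.1 and 36.4 CPM with C3a, against 27.7, 21.8 and 28.0 CPM with C3aRA. In both genes each C3a library was above each C3aRA library. Mrpl12, a stalk protein, was the gene added without C3a replicate 2 (86.4, 92.5 and 85.9 CPM with C3a, against 67.2, 64.1 and 63.4 CPM with C3aRA). The comparisons with C3a share the C3a libraries, so their values are not independent.

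Other genes of mitochondrial gene expression, and the import, activator and cytosolic ribosomal protein genes set beside them, gave few calls. Of the 211 tested genes of these lists, 82 were taken as cytosolic ribosomal proteins. Between C3aRA and oxy-Hb alone, edgeR, DESeq2 and limma-voom each called 0 of the 211 genes of these lists that were tested. At an unadjusted p below 0.05 in edgeR, 7 were higher and 10 lower (3.37% and 4.78% of all tested genes). With C3a replicate 2 left out, edgeR called 10 cytosolic ribosomal proteins higher with C3aRA, 1 mitochondrially encoded mRNA higher and 1 lower (mt-Cytb, -0.34, adjusted p = 0.0302), and the activator Pprc1 lower (-0.34, adjusted p = 0.0374). Of all genes, 1.88% were called higher and 1.38% lower in that fit. None of the 5 mitoribosomal proteins with other symbols (Dap3, Chchd1, Aurkaip1, Ptcd3 and Gadd45gip1) was called by edgeR between C3a and oxy-Hb, with a median of 0.26 and 1 higher at an unadjusted p below 0.05. The same held for 26 assembly factors (median 0.16, 7 higher at an unadjusted p below 0.05), 26 import proteins (0.30, 12 higher), 15 translation factors (0.15, 5 higher), 15 genes of mitochondrial transcription and genome upkeep (0.25, 5 higher and 1 lower) and 20 tRNA synthetases (0.03, 2 higher and 2 lower). Of all tested genes, 0.905% were called higher and 3.04% lower with C3a over oxy-Hb. At an unadjusted p below 0.05 in edgeR, 11.5% of them were higher and 12.6% lower. Aars2 (-0.69, edgeR adjusted p = 0.0558) and Vars2 (-0.52, 0.0594) had the lowest p-values of the synthetases, both below 0. Without C3a replicate 2 the medians with C3a over oxy-Hb were 0.07 for the proteins with other symbols (0 called), 0.04 for assembly factors, 0.15 for import proteins, 0.15 for translation factors and 0.10 for transcription and upkeep (1 called higher in each), and 0.03 for the synthetases, of which 1 was called higher and Aars2 lower (-0.66, edgeR adjusted p = 0.0194). Without that library, 4% of all genes were called higher and 5.55% lower. Over the lists from the proteins with other symbols to the synthetases, limma-voom called 0 with all 9 libraries (0.933% of all genes higher and 3.49% lower). DESeq2 called 2 assembly factors, 2 import proteins and 1 translation factor higher and 2 synthetases lower, against 3.68% of the genes it adjusted higher and 6.42% lower. Over all 211 genes, limma-voom called 0 higher and 1 lower with C3a over oxy-Hb, and DESeq2 called 11 higher and 4 lower.

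Of the 12 mitochondrially encoded mRNAs tested, the templates of this ribosome, 1 was called, against 0.905% of all tested genes called higher with C3a over oxy-Hb. The transcript mt-Nd1, a complex I subunit, had 4744, 7950 and 6247 CPM with C3a, 2871, 3342 and 2729 CPM with C3aRA, and 3077, 4116 and 4502 CPM with oxy-Hb alone. All C3a libraries were above the others, with a log2 fold change of 0.70 ± 0.18 over oxy-Hb (SE; edgeR adjusted p = 0.0488) that was not called without C3a replicate 2 (0.49, edgeR adjusted p = 0.207), when the median of the 12 mRNAs was 0.14, against 0.37 with all libraries. Of the 82 genes taken as cytosolic ribosomal proteins, Rpl30 was called higher with C3a over oxy-Hb (0.58, edgeR adjusted p = 0.0477). It was 0.33 (edgeR adjusted p = 0.014) without C3a replicate 2, where 3 cytosolic genes were called lower (5.55% of all genes). The median of the 82, 0.27 with all libraries, came to -0.0060 in that fit, against 0.10 for the mitoribosomal genes. With all libraries, DESeq2 called 2 of the 12 mRNAs and 4 of the 82 cytosolic genes higher (3.68% of the genes it adjusted). With limma-voom, 0 of either list were called (0.933% of all genes higher). Neither mitochondrial ribosomal RNA was called by edgeR, DESeq2 or limma-voom (0 of 2, with 1 higher at an unadjusted p below 0.05), and their summed level was 1876 to 2621 CPM with C3a, 1861 to 2329 CPM with C3aRA and 1543 to 2082 CPM with oxy-Hb alone.

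Among 9 activators of nuclear genes for mitochondria, Pprc1, a coactivator related to PGC-1, fell with C3a, against 3.04% of all tested genes called lower. It had 49.9, 42.1 and 53.5 CPM with C3a, 61.9, 57.3 and 68.6 CPM with C3aRA, and 72.1, 80.8 and 85.0 CPM with oxy-Hb alone, with no overlap between the 3 groups. Its log2 fold change with C3a over oxy-Hb was -0.71 ± 0.12 (SE; edgeR adjusted p = 0.00699), called in all 9 fits that leave out 1 library. After the length and GC correction it was -0.41 (edgeR adjusted p = 0.0389). Ppargc1b had 6.63, 2.97 and 5.55 CPM with C3a and 9.05, 8.04 and 9.65 CPM with oxy-Hb alone, and edgeR did not call it. DESeq2 called 2 of the 9 activators lower (6.42% of the genes it adjusted). The list was mixed, with 3 of the 9 above 0. In edgeR, 1 activator was called higher without C3a replicate 2 (4% of all genes), and 1 with the length and GC correction (5.46%).

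Between C3a and C3aRA, edgeR called 9 of the 211 genes of these lists in the fit of 9 libraries, all higher with C3a. Of all tested genes, 2.87% were called higher and 3.32% lower. The 9 included Mtg2 (0.50, edgeR adjusted p = 0.037) and Mrm2 (0.93, 0.0466) of ribosome assembly, Lrpprc (0.40, 0.032), which stabilises mitochondrial mRNAs, and the import proteins Timm17a (0.44, 0.0381), Tomm5 (0.76, 0.0407) and Timm8a1 (0.68, 0.0412). The mRNAs mt-Nd1 (1.08, edgeR adjusted p = 0.00857) and mt-Cytb (0.70, 0.0113) were also called. Rps19bp1 (0.58, edgeR adjusted p = 0.0394), taken by its symbol, encodes a binding protein and not a ribosomal protein. These 9 genes stayed called without C3a replicate 2, with log2 fold changes of 0.30 (Timm17a) to 0.93 (Mrm2), and without C3aRA replicate 1 none of the 9 was. Calls in the other direction were made elsewhere: DESeq2 called 3 of the 211 lower with C3a (Pprc1, Aars2 and Rpl12), and edgeR without C3a replicate 2 called 7 cytosolic ribosomal proteins and 1 gene each of the assembly, synthetase, mitochondrial mRNA and activator lists lower. DESeq2 called 6.78% of the genes it adjusted lower, and edgeR without C3a replicate 2 called 6.54% of all genes lower.

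Several of these genes share their place with others, and the strand setting of the counts is not given in the sources used here. Of the 77, 30 overlap another listed gene on the opposite strand, 7 one on the same strand, and 19 have a protein-coding neighbour that starts within 1000 bases in the opposite direction. Mrpl18 (chromosome 17, 12911349 to 12916345, minus strand, GRCm38) overlaps Tcp1, a subunit of the cytosolic chaperonin, by 645 bases. Tcp1 had 738, 842 and 771 CPM with C3a, 664, 682 and 667 CPM with C3aRA, and 657, 626 and 663 CPM with oxy-Hb alone (log2 fold change with C3a over oxy-Hb 0.27 ± 0.092, SE; edgeR adjusted p = 0.099). Without a stated strand setting it is not known whether reads of the overlap were assigned to 1 gene, and the part of Tcp1 in the Mrpl18 counts was not tested.

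Mrpl36 overlaps Ndufs6, a complex I subunit, by 30 bases, and Mrpl49 overlaps Syvn1 by 83 bases. Ndufs6 had a log2 fold change of 0.41 with C3a over C3aRA (edgeR adjusted p = 0.141) and 0.35 over oxy-Hb (0.199). These have the direction of Mrpl36, and the part of Ndufs6 in the Mrpl36 counts was not tested. Syvn1, an ubiquitin ligase of the endoplasmic reticulum, was lower with C3a (log2 fold change -0.87 over oxy-Hb, edgeR adjusted p = 0.0416). Mrpl49 had 33.3, 41.1 and 36.4 CPM with C3a and 28.5, 31.7 and 29.2 CPM with oxy-Hb alone, the opposite direction. With C3a over C3aRA, where Mrpl49 was called higher, Syvn1 had -0.25 (edgeR adjusted p = 0.525). Mrps34, the gene with the lowest fitted value with C3a over oxy-Hb, overlaps Mapk8ip3 on the opposite strand by 2387 bases, its whole annotated span. Mapk8ip3 had 49.2, 28.0 and 46.7 CPM with C3a and 104.1, 99.8 and 83.4 CPM with oxy-Hb alone (log2 fold change -1.21 ± 0.18, SE; edgeR adjusted p = 0.00337). The part of Mapk8ip3 in the Mrps34 counts was not tested. Mrpl11 (chromosome 19, 4962306 to 4966995, plus strand), Mrps30 (chromosome 13, 118378381 to 118387252, minus strand), Mrps21 (chromosome 3, 95862634 to 95871519, minus strand) and Mrpl20 (chromosome 4, 155802878 to 155809975, plus strand) overlap no listed gene. Overlap with annotated genes outside the list was not checked. Mrps11 and Mrpl46 overlap head to head by 413 bases, and both had fitted values above 0 with C3a over oxy-Hb (0.50 and 0.49).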

How the data were processed

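Libraries were made from 1.3 ug of total RNA with a SMARTER mRNA-seq kit, per the labels' protocols. The authors deposited raw read counts per Ensembl gene, with their own log2 fold changes and p-values. The builds GRCm38 and mm10 are named in the submitters' processing notes; no aligner, counting tool, strand setting or differential test of the authors is named in what was read here. Both tables held identical oxy-Hb counts, so 9 libraries were fitted together with edgeR 4.0.16 in R 4.3.3 (filterByExpr with a minimum count of 10, TMM, 1 coefficient per group, robust quasi-likelihood test). P-values were adjusted by Benjamini-Hochberg over all 14146 genes and called below 0.05; biological variation was 15.8%. CPM are TMM-scaled. Transcript lengths came from a GENCODE annotation of GRCm38. Alternatives were DESeq2 1.42.0, voom of limma 3.58.1, other scalings, filters, fits and a length and GC correction. The fit was tested on simulated data. The genes, lists and tests were chosen with earlier results of these data known. Named genes were called genes, or the 8 of lowest p per comparison, the 5 highest and 5 lowest levels, and called genes of companion lists. The precision of a level is limited by its counts and by 3 libraries per group.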

Additional observations from a re-analysis of the deposited data

How the results depend on the processing

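Between C3a and oxy-Hb, the 3 genes called higher became 0 at an adjusted p below 0.01, 1 with total count scaling, 10 without the count filter, 0 in the fit of the 2 groups alone, 11 with the length and GC correction, 14 with that correction and without C3a replicate 2, and 5 with DESeq2. Of all genes, 0.0218% were called higher in the fit of the 2 groups alone, 5.46% with the correction and 3.68% with DESeq2. With total count scaling 34 of all 14146 genes were called higher. With the correction and without C3a replicate 2, 1356 of all 14613 genes were called higher. Leaving out each library in turn gave 0 to 19, with 0 without oxy-Hb replicate 1 or 2, 1 without C3aRA replicate 1 or 2, and 19 without C3a replicate 1. Between C3aRA and oxy-Hb, the main counts of 0 became 1 higher and 3 lower in the fit of the 2 groups alone, 0 to 3 lower when each library was left out (3 without C3a replicate 2), and 6 higher and 3 lower with the length and GC correction without C3a replicate 2. Of all genes, 2.48% were called higher and 1.94% lower in the fit of the 2 groups alone, and 1.38% lower without C3a replicate 2. With the correction and without that library, 972 of all 14613 genes were called higher and 214 lower. Between C3a and C3aRA, the 9 genes called higher became 3 at the threshold of 0.01, 14 without the filter, 3 in the fit of the 2 groups alone (0.415% of all genes) and 15 with DESeq2 (6.27%). Leaving out each library gave 0 to 16, with 0 without C3aRA replicate 1, 3 without C3aRA replicate 2 or 3, 5 without oxy-Hb replicate 2 or 3, and 16 without C3a replicate 1. With the replicate number as a block, 5 genes were called higher between C3a and oxy-Hb, 0 between C3aRA and oxy-Hb and 13 between C3a and C3aRA, and with the block and the length and GC correction 21 and 16 in the comparisons with C3a. Shares over all genes are not given here for the threshold of 0.01, the fit without the filter, the blocks and the other fits that leave out 1 library, so those counts have no background beside them. Same-numbered libraries deviated together with correlations of -0.04 to 0.17 only, so the numbers were not taken as pairs. None of these settings called a gene of the 77 lower with C3a. Searched on the gene's strand only, NRF1 motifs were found in 8 windows and ETS motifs in 7. The cause of these changes was not tested. With 3 libraries per group and 1 library apart, differences of the size seen here (mostly under 0.5 on the log2 scale) are near the limit of detection.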

Other observations

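The 3 pseudogene rows of mitoribosomal genes that passed the count filter stayed far below their parent genes. Mrpl48-ps had 22, 32 and 32 counts with C3a, 24, 37 and 32 counts with C3aRA, and 29, 37 and 56 counts with oxy-Hb alone. Mrps36-ps1 had 9 to 33 counts and Mrpl23-ps1 1 to 16 counts over the 9 libraries.

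Ncapd2, a condensin subunit whose start lies within 1000 bases of that of Mrpl51 in the opposite direction, was lowest in the library where Mrpl51 was highest. Ncapd2 had 96.5, 56.3 and 79.2 CPM with C3a, 93.0, 89.7 and 100.6 CPM with C3aRA, and 110.6, 102.3 and 98.0 CPM with oxy-Hb alone (edgeR adjusted p = 0.119 for C3a over oxy-Hb). Fau, the divergent neighbour of Mrpl49 that encodes a ribosomal protein fusion, was highest in the same library, with 25.2, 43.4 and 24.9 CPM with C3a, 22.8, 25.7 and 20.5 CPM with C3aRA, and 26.1, 22.8 and 21.9 CPM with oxy-Hb alone.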
